A study of Bos taurus with 6 samples.

Results

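Mitochondrial ribosomal proteins build the ribosome inside mitochondria, and their transcripts were followed in bovine cumulus cells over the first hours of in vitro maturation. The members were the genes whose platform symbol starts with MRPL or MRPS followed by a digit, which gave 75 of the 15216 named genes on the array, read by 128 of its 43794 probes. MRPL names the large subunit, with 46 genes, and MRPS the small subunit, with 29 genes. MRPS12, the small subunit protein at the decoding centre, was not tested because it was above background on 5 of 6 arrays at 0 h and on 4 of 6 arrays at 6 h. Its log2 ratio of 6 h over 0 h was 0.19, -0.026 and 0.036 in the 3 replicates. The other 74 members were tested, and 70 of them were above background on all 6 arrays at both times.

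Cumulus cells from Holstein slaughterhouse ovaries were compared in 3 biological replicates, each hybridised on 2 arrays with the dyes exchanged, for 6 arrays in all. The 0 h group was stripped mechanically from complexes that had not been cultured, and the 6 h group came from complexes held for 6 h in maturation medium, a serum-supplemented tissue culture medium with estradiol, pyruvate and gentamicin. The labels name no gonadotropin in that medium, and they do not say how the 6 h cells were separated from the oocyte. How many animals or complexes made up a replicate is not stated either, so each p-value rests on 3 replicates of unknown make-up.

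Mitochondrial ribosomes translate the few proteins encoded by mitochondrial DNA, all of them subunits of the oxidative phosphorylation complexes. Their ribosomal RNAs come from mitochondrial DNA, whereas every ribosomal protein is encoded in the nucleus, made in the cytosol and imported. Some of these proteins have counterparts in bacterial ribosomes and others exist only in mitochondria. Cumulus cells surround the oocyte and supply it with metabolites through gap junctions.

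Raw intensity had a median per array of 208 to 264 in the Cy3 channel and of 169 to 212 in the Cy5 channel, and 41.3% to 84.3% of probes were above background. The correlation across probes between the 2 arrays of a dye swap was 0.83 to 0.90, and between replicates 0.75 to 0.87. Of 11 cumulus and granulosa markers with a probe, 10 were above background on all 6 arrays at 0 h and 9 at 6 h, and 7 of the 10 tested fell. Of 8 theca and stroma markers with a probe, 5 were tested and 4 rose. Of 5 immune markers with a probe, 3 were tested and 1 rose (CD68, 1.33). Over all tested genes, 17.4% rose and 18.2% fell. HBA, 1 of 3 erythrocyte markers, was above background on all arrays at both times and was not called (-0.033). No endothelial marker was above background on all arrays at either time. Of 11 oocyte markers, 1 passed the background on every array at 0 h and 6 did so at 6 h. The median log2 ratio of all 11 oocyte markers was 0.92, 0.26 and -0.59 in replicates 1, 2 and 3. Of the 11, 7 were tested, most of them only through their 6 h signal, and none was called. In such mixed RNA, fewer cells of a type and less RNA per cell cannot be told apart.

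Most genes of the mitochondrial ribosome were not called, and a few fell clearly. A gene was called where limma's adjusted p, with Benjamini-Hochberg adjustment over all 9216 tested genes, was under 0.05. Each gene's variance was moderated towards that of all tested genes, so p does not follow from the SD printed beside it alone. Of the 74 tested members, 3 rose and 10 fell at 6 h, which is 17.6% called, where 35.6% of all tested genes were called. Over all genes 17.4% rose and 18.2% fell, and among members 4.05% rose and 13.5% fell. With median centring in place of loess, 0 members rose and 10 fell (13.5% called; all genes 34.4%). The ratios of the 3 hardly moved and their adjusted p passed just over the threshold: MRPL16 had 0.42 (adjusted p = 0.0507), MRPL38 0.50 (0.0554) and MRPL34 0.58 (0.0756). The fold reached 2 in 4 members, all of them lower (MRPS6, MRPL10, MRPL3 and MRPL50), against 11.6% of all tested genes that were called at 2-fold or more.

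The median log2 ratio of the 74 members was -0.0022 with quartiles of -0.18 and 0.22, and over all tested genes it was -0.018 with quartiles of -0.32 and 0.28. The median size of the ratio, whatever its sign, was 0.19 in members and 0.30 in all genes. The ratio had 1 sign in all 3 replicates in 42 members (56.8%; all genes 64%) and on every array in 19 members (25.7%; all genes 43.3%). Most members thus lay near 0, with a few genes well below it, and whether the members differ from the array as a whole was not tested.

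**Figure D1:**
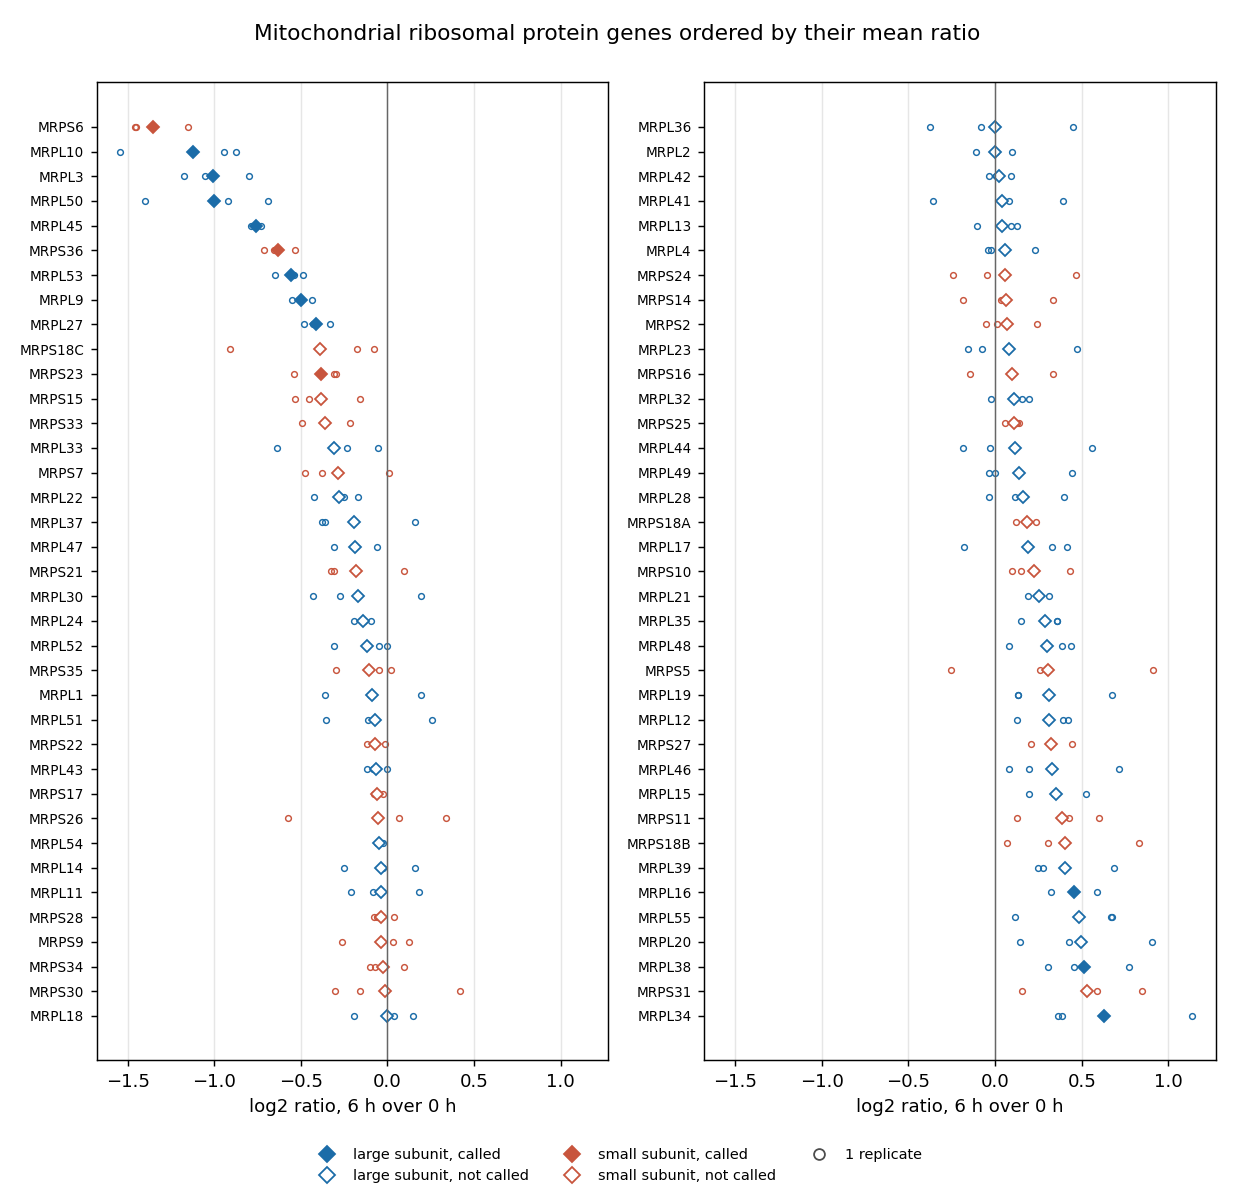
The 74 tested members in order of their mean log2 ratio of 6 h over 0 h (horizontal axis), with open circles for the 3 replicates, diamonds for the mean, and filled diamonds for called members. Large subunit genes are blue and small subunit genes red. MRPS6, MRPL10, MRPL3 and MRPL50 lie at or below -1.0, and the highest mean is that of MRPL34 at 0.63.

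The 5 members with the lowest ratios were lower on every array. The median log2 ratio of the 11 cumulus and granulosa markers was -0.80, -0.95 and -0.81 in replicates 1, 2 and 3. Of the 10 tested, 7 fell (all genes 18.2%), and AMH, INHA and INHBA were not called. AMH (0.23) and INHA (0.030) were above 0 in replicate 3, and INHBA (0.033 and 0.12) in replicates 1 and 2. The part of the marker set in the results for the members was not tested. MRPS6, the counterpart of a bacterial protein of the small subunit's platform, had a normalized log2 intensity of 11.92, 12.47 and 12.68 at 0 h and of 10.76, 11.01 and 11.23 at 6 h in replicates 1, 2 and 3. All 6 h levels lay below all 0 h levels. MRPS6 fell by 1.35 ± 0.17 on the log2 scale (SD, n = 3; 2.55-fold lower; limma adjusted p = 0.00199), and its other probe gave -1.49 ± 0.21. In the RefSeq annotation MRPS6 overlaps SLC5A3, a sodium and myo-inositol cotransporter gene, whose probe gave -0.096 (adjusted p = 0.541).

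MRPL10 is the protein at the base of the stalk that receives translation factors, and it holds the copies of MRPL12. Its log2 intensity was 11.84, 12.44 and 12.03 at 0 h and 10.89, 10.90 and 11.16 at 6 h. The time points did not overlap, and replicate 2 had the largest difference. MRPL10 fell by 1.12 ± 0.37 (SD, n = 3; 2.17-fold lower; limma adjusted p = 0.00637). Its partners in the stalk were not called. MRPL11, which sits at the stalk base, had a log2 ratio of -0.036 ± 0.20 (adjusted p = 0.856). MRPL12, which forms the mobile part of the stalk and has been reported to bind the mitochondrial RNA polymerase, had log2 ratios of 0.13, 0.39 and 0.42, a mean of 0.31 ± 0.16 (adjusted p = 0.0936). Whether MRPL10 differed from MRPL11 or MRPL12 was not tested.

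MRPL3 lies next to the centre where peptide bonds are formed, and inherited defects in it cause cardiomyopathy in humans. The MRPL3 log2 intensity was 11.21, 11.24 and 10.90 at 0 h and 10.16, 10.07 and 10.10 at 6 h, again without overlap and with little spread at 6 h. MRPL3 fell by 1.01 ± 0.19 (SD, n = 3; 2.01-fold lower; limma adjusted p = 0.00382).

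MRPL50, a large subunit protein with no bacterial counterpart, had a log2 intensity of 12.92, 13.04 and 12.63 at 0 h and of 12, 11.64 and 11.94 at 6 h. Here too the time points were separate. MRPL50 fell by 1.00 ± 0.36 (SD, n = 3; 2.00-fold lower; limma adjusted p = 0.0085). The gene next to it in RefSeq, the zinc finger gene ZNF189, fell by 1.86 as well (adjusted p = 0.00135).

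MRPL45 anchors the large subunit to the inner membrane near the exit of the peptide tunnel. Its log2 intensity was 10.45, 10.31 and 10.26 at 0 h and 9.72, 9.55 and 9.47 at 6 h, with no overlap and nearly the same difference in each replicate. MRPL45 fell by 0.757 ± 0.029 (SD, n = 3; 1.69-fold lower; limma adjusted p = 0.00505), and its other tested probe gave -0.50 ± 0.23. OXA1L, the insertase that takes nascent proteins from the ribosome into the same membrane, is outside the naming rule, and it had log2 ratios of -0.78, -1.39 and -0.77. OXA1L fell by 0.98 ± 0.35 (SD, n = 3; 1.97-fold lower; limma adjusted p = 0.00872).

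**Figure D2:**
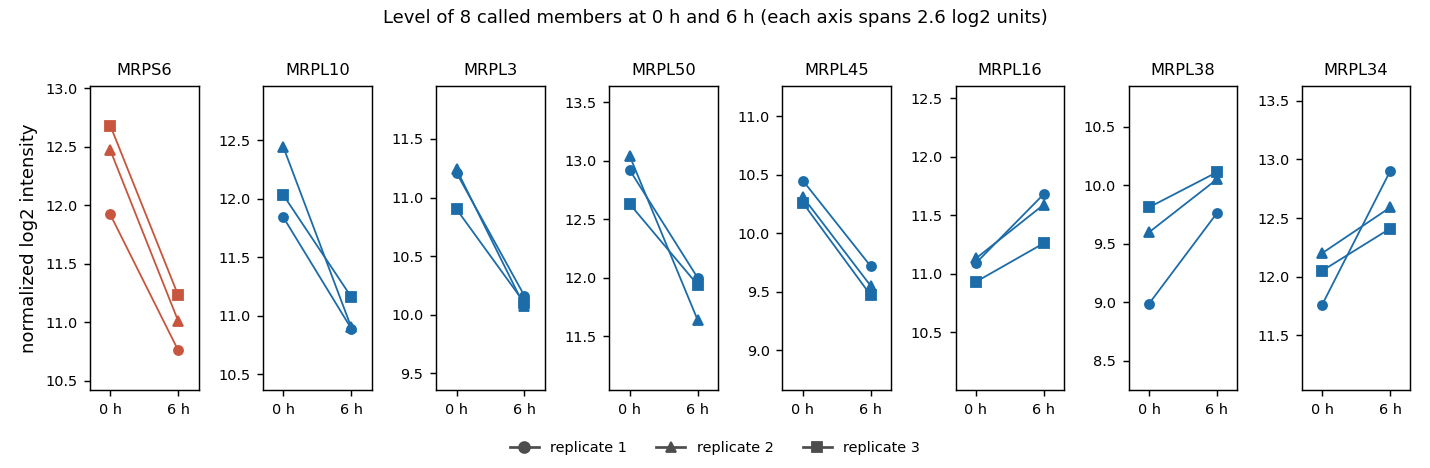
Normalized log2 intensity (vertical axes, all spanning an equal number of log2 units) of 8 called members at 0 h and 6 h, each line 1 replicate. The 5 members that fell furthest drop in all 3 replicates, MRPS6 from 11.92, 12.47 and 12.68 to 10.76, 11.01 and 11.23. MRPL16, MRPL38 and MRPL34 rise in all 3, with the steepest line of MRPL34 in replicate 1. Levels of different genes are read by different probes and are not comparable.

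The other 5 members that fell did so by 1.55-fold (MRPS36) or less. MRPS36 had log2 ratios of -0.71, -0.54 and -0.65 and fell by 0.634 ± 0.090 (SD, n = 3; limma adjusted p = 0.00937), while its dimmer probe gave -0.16 ± 0.10. MRPS36 keeps its ribosomal symbol but is now counted as KGD4, a subunit of the oxoglutarate dehydrogenase complex of the citric acid cycle. MRPL53, specific to mitochondria, had log2 ratios of -0.54, -0.49 and -0.65 and fell by 0.559 ± 0.082 (adjusted p = 0.0131). Its second tested probe did not show this and gave 0.147 ± 0.037. The call for MRPL53 was lost when its probes were averaged (-0.21, adjusted p = 0.166).

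MRPL9, a counterpart of bacterial L9, had log2 ratios of -0.44, -0.55 and -0.50 and fell by 0.498 ± 0.058 (SD, n = 3; limma adjusted p = 0.0179). MRPL27, whose bacterial counterpart reaches towards the peptidyl transferase centre, had log2 ratios of -0.48, -0.43 and -0.33 and fell by 0.414 ± 0.079 (adjusted p = 0.0325). MRPS23, a mitochondria-specific protein of the small subunit, had log2 ratios of -0.31, -0.30 and -0.54 and fell by 0.38 ± 0.14 (adjusted p = 0.0494). MRPL9 and MRPL27 were lower on all 6 arrays, whereas the MRPS23 probe was lower on 4 and higher on 2. The second tested MRPS23 probe was lower on all 6 arrays, at -0.397 ± 0.086.

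All 3 members that rose belonged to the large subunit. MRPL16, a counterpart of a bacterial protein close to the transfer RNA sites, had a log2 intensity of 11.09, 11.13 and 10.93 at 0 h and of 11.68, 11.59 and 11.26 at 6 h. The time points did not overlap, and MRPL16 rose by 0.46 ± 0.13 (SD, n = 3; 1.37-fold; limma adjusted p = 0.0291). It overlaps the syntaxin gene STX3 in RefSeq, whose probe gave -0.076 (adjusted p = 0.641).

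MRPL38, a mitochondria-specific protein of the central protuberance, had a log2 intensity of 8.99, 9.60 and 9.81 at 0 h and of 9.76, 10.05 and 10.11 at 6 h. The groups overlapped, but each replicate was higher at 6 h than its own 0 h sample. MRPL38 rose by 0.51 ± 0.24 (SD, n = 3; 1.43-fold; limma adjusted p = 0.0338), with 0.55 ± 0.13 at its other probe. The brighter probe was higher on 4 arrays and lower on 2, and with the arrays that held the 6 h RNA in Cy5 alone its ratio was 0.095 (adjusted p = 0.715). The dimmer probe was higher on all 6 arrays.

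MRPL34, a small basic protein with a bacterial counterpart, had a log2 intensity of 11.76, 12.20 and 12.05 at 0 h and of 12.90, 12.59 and 12.41 at 6 h. The time points were separate, and the log2 ratio was 1.14 in replicate 1 against 0.38 and 0.36 in the other replicates. MRPL34 rose by 0.63 ± 0.44 (SD, n = 3; 1.55-fold; limma adjusted p = 0.0492), and without replicate 1 the ratio was 0.37 (adjusted p = 0.0664). Replicate 1 also had the highest median ratio of oocyte markers (0.92, against 0.26 and -0.59 in replicates 2 and 3). The part of oocyte RNA in this result was not tested. ABHD8, the gene beside MRPL34 in RefSeq, rose by 0.61 (adjusted p = 0.0155).

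MRPL16, MRPL34, MRPL38, MRPL27 and MRPS23 each lost their call whichever replicate was left out, MRPL53 and MRPL9 without replicate 2 or 3, and MRPS36 without replicate 2 (adjusted p = 0.0555). Without replicate 2, 5 members remained called, which were MRPS6, MRPL10, MRPL3, MRPL50 and MRPL45, and 14.6% of all tested genes were called. Without replicate 3, 7 members were called (9.46%), where 25.2% of all tested genes were called.

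The large and small subunits were close to each other. In the large subunit, 3 of 46 tested members rose and 7 fell (21.7%), with a median log2 ratio of 0.0093. In the small subunit, 0 of 28 rose and 3 fell (10.7%), with a median of -0.030. Over all tested genes, 17.4% rose and 18.2% fell (35.6% called). Since MRPS30 and MRPS18A sit in the large subunit in structures despite their names, the counts were also made that way. The large subunit then had 3 rising and 7 falling genes of 48, and the small subunit had 0 and 3 of 26. Both counts keep MRPS36, now counted as KGD4, among the 3 falling small subunit genes.

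The median of the large subunit was 0.12, -0.029 and -0.024 in replicates 1, 2 and 3, and that of the small subunit was -0.062, -0.020 and -0.020. The difference between them, large minus small, was 0.18 in replicate 1 and -0.00835 and -0.00449 in the other replicates. With a mean over replicates of 0.06 and an SD of 0.11, the difference per replicate was smaller than its spread, and this mean rested on replicate 1. Taken between the medians of gene means, the difference was 0.039. It was 0.021 without replicate 1, 0.049 without replicate 2 and 0.027 without replicate 3. The difference is described here without a test.

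**Figure D3:**
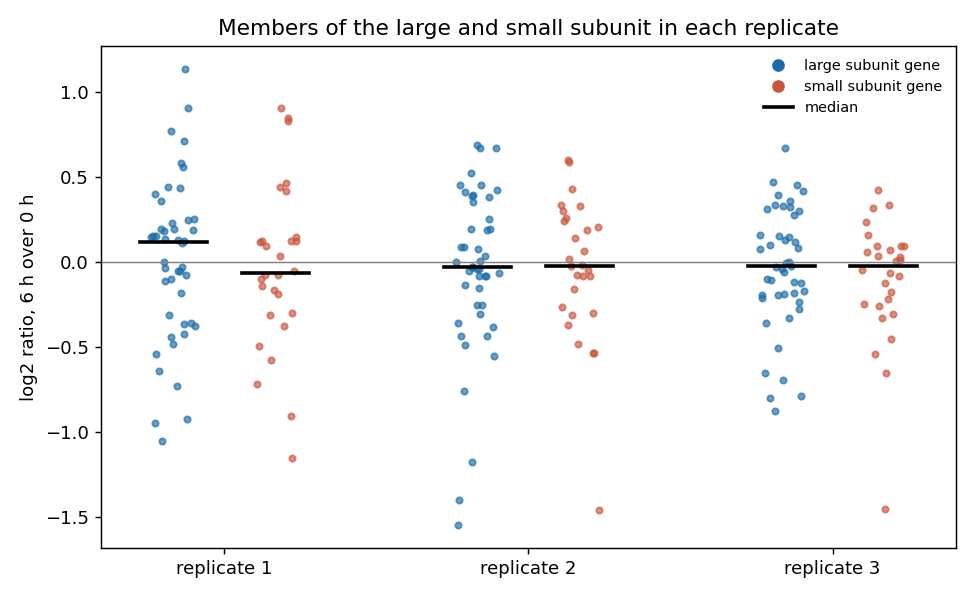
Log2 ratio of 6 h over 0 h (vertical axis) of every tested member in each replicate, large subunit in blue and small subunit in red, each point 1 gene and each bar the median. The subunit medians are 0.12 and -0.062 in replicate 1 and differ by less than 0.01 in replicates 2 and 3.

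The calls were also counted by bacterial ancestry. Among large subunit members named after bacterial proteins, 2 of 30 rose and 4 fell, with a median of 0.018. Among those without a bacterial counterpart, 1 of 16 rose and 3 fell, with a median of -0.013. In the small subunit the corresponding counts were 0 rising and 1 falling of 17 (median 0.058), and 0 and 2 of 11 (median -0.057). These 2 include MRPS36, now counted as KGD4. The shares over all tested genes were 17.4% that rose and 18.2% that fell. Whether these classes differed was not tested.

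Of the members, 61 were not called, with ratios from -0.39 in MRPS18C to 0.53 in MRPS31. For all 61, the 95% interval of the log2 ratio lay within 2-fold either way, and its half-width ran from 0.26 to 0.58 with a median of 0.31. For 43 of them (70.5%) it lay within 1.5-fold, against 65.9% of all 5934 genes that were not called. A difference of 1.5-fold therefore remains possible at this precision for the other 18.

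The 3 genes closest to the threshold on the uncalled side were MRPS31, MRPL55 and MRPS33. MRPS31, a small subunit protein first described as a mitochondrial autoantigen, had log2 ratios of 0.85, 0.59 and 0.16, a mean of 0.53 ± 0.35 (SD, n = 3; limma adjusted p = 0.0512), and its other probe gave 0.19. MRPL55 had 0.12, 0.67 and 0.67 at its brightest probe, a mean of 0.49 ± 0.32 (adjusted p = 0.0578), and leaving out replicate 1 brought it past the threshold (0.67, adjusted p = 0.00822). MRPS33 had -0.49, -0.37 and -0.22, a mean of -0.36 ± 0.14 (adjusted p = 0.0596). On the called side the nearest were MRPL38, MRPL34 and MRPS23, described above, so genes with ratios of like size fell on both sides.

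The 3 copies of the S18 family gave separate values. MRPS18C, the copy at the place of bacterial S18, had log2 ratios of -0.91, -0.080 and -0.17, a mean of -0.39 ± 0.45 (adjusted p = 0.175). MRPS18B had 0.83, 0.30 and 0.071, a mean of 0.40 ± 0.39 (adjusted p = 0.128). MRPS18A, the copy found in the large subunit, had 0.12, 0.19 and 0.23, a mean of 0.182 ± 0.058 (adjusted p = 0.241). The MRPS18A ratio depended on the dye, with 0.56 (adjusted p = 0.0182) from the arrays that held the 6 h RNA in Cy3 and -0.20 (adjusted p = 0.363) from those that held it in Cy5. With the dye swaps averaged none of the 3 was called, and in MRPS18B and MRPS18C the value of replicate 1 was far from the other replicates.

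Of further members with reported roles beyond the ribosome's core, 4 were not called and had means near 0 or wide spreads. MRPL44, an RNase III-like protein of the large subunit, had a mean log2 ratio of 0.12 ± 0.39 (SD, n = 3; limma adjusted p = 0.66). MRPL41, reported to act on cell cycle and apoptosis in human cells, had 0.038 ± 0.38 (adjusted p = 0.888), and MRPL18, reported to bind 5S ribosomal RNA in human cells, had -0.0025 ± 0.17 (adjusted p = 0.99). MRPS30, once named as a programmed cell death protein, had -0.013 ± 0.38 (adjusted p = 0.961).

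MRPS27, a pentatricopeptide repeat protein that binds RNA, was higher on all 6 arrays. Its log2 ratios were 0.44, 0.21 and 0.32, with a mean of 0.32 ± 0.12 (adjusted p = 0.0735), so that it did not pass the threshold. MRPL58, which releases peptides from stalled ribosomes, is listed under an older symbol and lies outside the naming rule. It had a log2 ratio of 0.100 ± 0.067 (adjusted p = 0.524).

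Different probes of a gene served as a check within the arrays. Of the members, 29 had several tested probes, and the gap between the lowest and highest probe ran from 0.0021 in MRPL49 to 1.00 in MRPL55. MRPL55 was the only one whose tested probes lay on opposite sides of 0 by more than 0.3. Its 3 brighter probes gave 0.49, 0.49 and 0.53, and its dimmest gave -0.48 ± 0.24, lower on all 6 arrays. Several other members also had tested probes of opposite sign, but not beyond 0.3 on both sides. Among them, MRPS7 had -0.28 ± 0.26 at its brighter probe and 0.46 ± 0.33 at the other. Which transcript each probe reads was not examined here, so the difference cannot be assigned to isoforms.

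**Figure D4:**
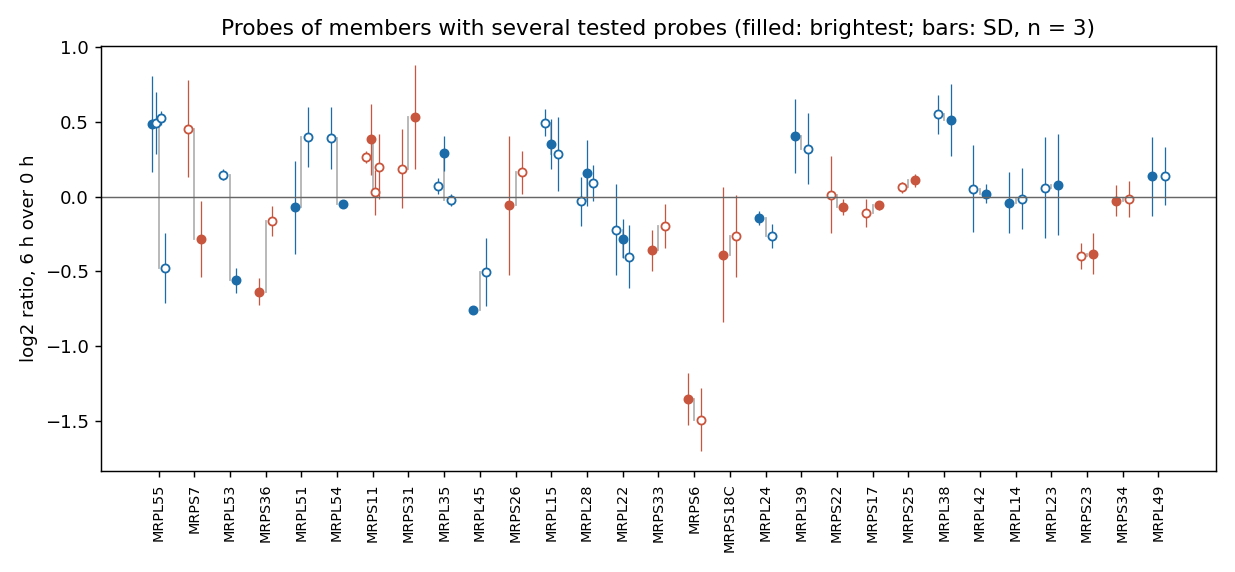
Log2 ratio of 6 h over 0 h (vertical axis) of every tested probe of the 29 members with several, in order of the gap between probes, with the brightest probe filled and bars for the SD over 3 replicates. Large subunit genes are blue and small subunit genes red. MRPL55, at the left, spans from -0.48 to 0.53, and both MRPS6 probes lie below -1.3.

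Neighbouring and overlapping genes were listed by name from RefSeq. Another gene overlaps 2 of the 13 called members, MRPS6 and MRPL16, and neither overlapping gene was called. For 6 called members the nearest gene was tested, and 5 of these had the sign of the member. ZNF189 and ABHD8, next to MRPL50 and MRPL34, were the 2 that were called. Over all tested members, 27 of 40 nearest genes had the sign of the member and 9 were called, where 35.6% of all tested genes were called. Whether neighbours shared the sign of the member more often than other genes was not tested.

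Other ribosomal proteins and partners carry names that the rule does not catch. For these and the lists below, the shares over all tested genes were 17.4% that rose and 18.2% that fell. Of 8 tested, 0 rose and 1 fell, namely OXA1L, which was listed with them for its place at the tunnel exit, and their median was -0.018. DAP3, a GTP-binding protein of the small subunit, had a log2 ratio of 0.16 ± 0.21 (adjusted p = 0.39), and MRPL57 had -1.06, -0.86 and 0.34, a mean of -0.53 ± 0.76 (adjusted p = 0.215). The MRPL57 replicates disagreed in sign. The oocyte marker medians given above did so too, but with the opposite signs (0.92, 0.26 and -0.59). The part of oocyte RNA in the MRPL57 values was not tested.

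Of 18 tested assembly factors and ribosomal RNA modifiers, 0 rose and 1 fell, and their median was 0.069. The 1 that fell was NGRN, a regulator of the large ribosomal RNA, with log2 ratios of -0.54, -0.76 and -0.46 and a mean of -0.59 ± 0.16 (limma adjusted p = 0.0149). The pseudouridine synthases RPUSD3, RPUSD4 and TRUB2, which modify mitochondrial RNA, had 0.15, 0.28 and -0.36, and none was called.

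Of 11 tested translation factors and partners of mitochondrial mRNA, 3 rose and 0 fell, with a median of 0.077. TUFM, the elongation factor that brings aminoacyl-tRNA to the ribosome, had log2 ratios of 1.12, 1.08 and 0.27 and rose by 0.82 ± 0.48 (SD, n = 3; limma adjusted p = 0.0266). GFM2, which helps recycle ribosomes after termination, had 0.79, 0.42 and 0.39 and rose by 0.53 ± 0.22 (adjusted p = 0.0273). MTRF1, a release factor, had 0.41, 0.53 and 0.30 and rose by 0.41 ± 0.12 (adjusted p = 0.0371). TSFM, the exchange factor of TUFM, had a ratio of 0.48 ± 0.53 (adjusted p = 0.138).

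Among 10 tested genes of mitochondrial DNA upkeep, transcription and RNA turnover, 2 rose and 1 fell, with a median of -0.062. PNPT1, the polynucleotide phosphorylase that degrades mitochondrial RNA and is known as interferon-inducible in human cells, had log2 ratios of 1.53, 2.58 and 2.74. PNPT1 rose by 2.28 ± 0.66 (4.87-fold; limma adjusted p = 0.00312). POLRMT, the mitochondrial RNA polymerase, had 1.17, 0.43 and 0.65 and rose by 0.75 ± 0.38 (adjusted p = 0.0221). POLG2, the accessory subunit of the DNA polymerase, had -0.38, -0.34 and -0.79 and fell by 0.50 ± 0.25 (adjusted p = 0.0377).

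Among 12 tested mitochondrial aminoacyl-tRNA synthetases and amidotransferase subunits, 1 rose and 1 fell, with a median of -0.095. RARS2, which charges the arginine tRNA, fell by 0.81 ± 0.26 (SD, n = 3; limma adjusted p = 0.00955), and its log2 ratios were -0.52, -1.03 and -0.88. MARS2, which charges the methionine tRNA, rose by 0.42 ± 0.18 (adjusted p = 0.0467).

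Complex I, the respiratory complex that holds several products of the mitochondrial ribosome, was listed beside the ribosome. Its genes were taken by symbols starting with NDUFA, NDUFB, NDUFC, NDUFS or NDUFV, without assembly factors. Of the 37 tested, 2 rose and 12 fell (37.8% called, all genes 35.6%). NDUFA4 and NDUFA4L2 are among the 37 by name, not by their place in the complex, and neither was called. In shares, 5.41% rose and 32.4% fell, against 17.4% and 18.2% of all genes. The median of the 37 genes was -0.30, with medians of -0.42, -0.20 and -0.20 in replicates 1, 2 and 3. NDUFS4, an accessory subunit needed for assembly, had log2 ratios of -1.25, -0.84 and -0.72 and fell by 0.94 ± 0.28 (limma adjusted p = 0.00681). NDUFB6, NDUFS7 and NDUFS1 fell by 0.68, 0.58 and 0.57. Whether complex I differed from the mitochondrial ribosome was not tested.

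Of 63 tested cytosolic ribosomal proteins, which make up the ribosome outside mitochondria, 0 rose and 3 fell (4.76% called; all genes 35.6%). Their median was 0.019. RPS26, RPL35 and RPS27 fell by 0.80, 0.80 and 0.55. The median size of the ratio was 0.093, against 0.19 in the mitochondrial members. For 14 of the 63 the spot was saturated on at least 1 array, which narrows a ratio, while 0 members of the mitochondrial ribosome were saturated. Over all these lists 27 genes were called, against 3 without replicate 2 and 17 without replicate 3. Whether the lists differed from each other was not tested.

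**Figure D5:**
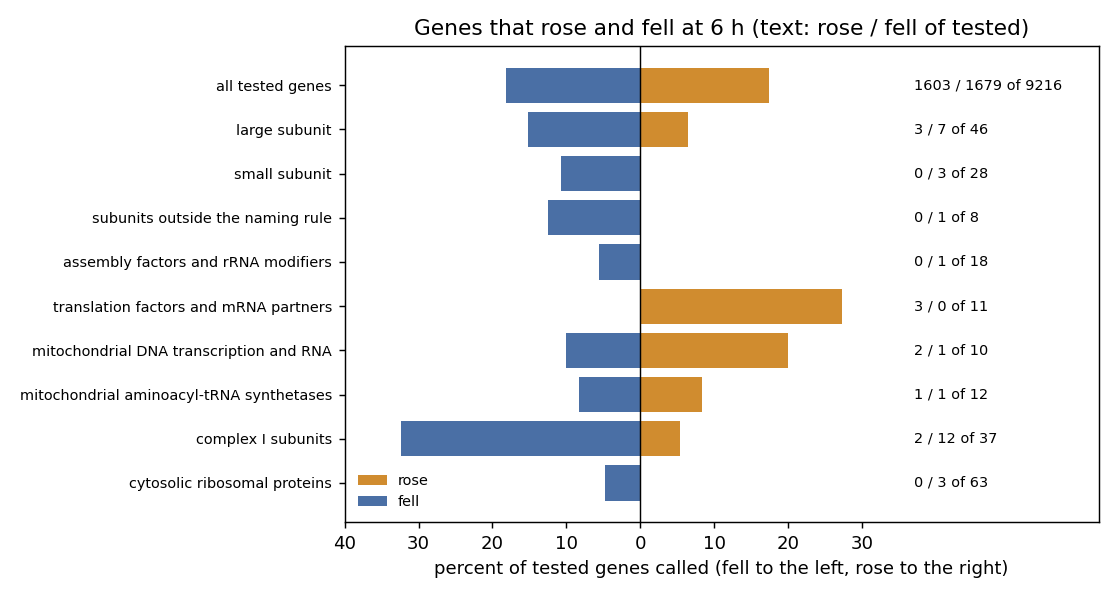
Percent of tested genes that fell (bars to the left) and rose (bars to the right) in the 2 subunits and the other lists, with the counts at the right. All tested genes rose and fell in nearly equal shares (17.4% and 18.2%). The large subunit has 3 rising and 7 falling of 46 genes, and the complex I list has 2 rising and 12 falling of 37.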

How the data were processed

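Per the file headers, the authors deposited raw scanner intensity per spot, its local background and whether the spot was to be ignored. Their deposited table of log2 ratios (Cy5 over Cy3, judged from its values) has a normalization not given in the sources used here. Its values correlated at 0.991 to 0.995 with the ratios computed here and served as an alternative.

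Spot means were background corrected with normexp (offset 50, fitted without ignored spots) and normalized by loess within arrays, with control and ignored spots at weight 0. Ratios were turned to 6 h over 0 h, and dye swaps were averaged (n = 3; 1 array of a replicate was missing for MRPL1). Levels are log2 intensities after Aquantile scaling. Background was set at 2 SD over the mean of 153 negative control spots, and a tested probe had to exceed it on all 6 arrays of at least 1 time point. A gene was read from its brightest tested probe with 1 platform symbol, updated through RefSeq (ARS-UCD2.0). Ratios were tested against 0 with limma 3.58.1 (R 4.3.3, moderated variances, two-sided, Benjamini-Hochberg over all tested genes). The procedure was tested on simulated data.

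Each array pairs both time points of 1 replicate. Members and lists were chosen with earlier results of these data known. The members named were all called ones, the 3 on each side nearest the threshold, those with opposed probes and a panel of roles, and of each other list up to 4 called genes with the smallest p. Other genes were chosen after their values were seen: MRPS7, MRPL49, DAP3, MRPL57, RPUSD3, RPUSD4, TRUB2, TSFM and the neighbouring genes. Alternatives changed the background correction, scaling, filter, probe, dye orientation, replicate block and replicates.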

Additional observations from a re-analysis of the deposited data

How the results depend on the processing

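The count of called members was 13 and lay between 10 and 19 under the alternatives that kept all replicates. Leaving out 1 replicate gave 5 to 13 called members, 1346 to 3367 called genes overall (3282 with all replicates) and 3 to 20 called genes in the other lists of mitochondrial translation, complex I and the cytosolic ribosome (27 with all replicates). The lowest of these counts came without replicate 2 and the highest without replicate 1, and the cause was not tested. The 3 rising and 10 falling members became 0 and 10 with median centring (13.5% called; all genes 34.4%). They became 2 and 13 with the authors' matrix (20.3% called; all genes 35.2%). When all 6 arrays were fitted with a replicate block, 9 rose and 10 fell. The replicate block called 19 of 74 members, 3886 of 9216 genes and 39 list genes. It lost MRPL38 (adjusted p = 0.0737) and MRPS23 (adjusted p = 0.0912), and it called the named members MRPL55, MRPS18B, MRPS27, MRPS31 and MRPS33. MRPS6, MRPL10, MRPL3, MRPL50 and MRPL45 were called under all 14 alternatives, MRPS36 under 13 and MRPL34 under 4. The authors' matrix and the series value table, counted as 2 of the 14, held identical values. MRPS33 was called with the authors' matrix (-0.39, adjusted p = 0.0357), and MRPL12 (0.49, adjusted p = 0.0303) and MRPS18A (0.56, adjusted p = 0.0182) from the arrays with 6 h RNA in Cy3 alone. MRPL55 was called from the arrays with 6 h RNA in Cy5 (0.55, adjusted p = 0.0402) and without replicate 1 (0.67, adjusted p = 0.00822). MRPS31 was called without replicate 3 (adjusted p = 0.0326) and with probes above background at both times (adjusted p = 0.0469). The difference between subunit medians stayed between -0.0055 and 0.049 under the 14 alternatives. No called member changed sign, but 6 uncalled named members near 0 did, none of them called with the opposite sign. MRPL11 turned to 0.057 with 6 h RNA in Cy3 alone, and with 6 h RNA in Cy5 alone MRPL18 turned to 0.043, MRPL41 to -0.089 and MRPS18A to -0.20. MRPL41 was -0.0078 in the authors' matrix and the value table. Leaving out 1 replicate gave -0.15 to 0.050 for MRPL11, -0.078 to 0.093 for MRPL18, -0.14 to 0.24 for MRPL41, -0.11 to 0.27 for MRPL44 and -0.23 to 0.13 for MRPS30. The cause was not tested. Signal close to background limits MRPS12, MRPS9, MRPS35, MRPL2 and MRPL28, which missed it on some arrays.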
